A study of Rattus norvegicus with 30 samples.

Results

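Isoproterenol, a synthetic relative of adrenaline, switches on beta-adrenergic receptors, and the hearts described here were sampled 1 h after a single dose of it or of vehicle. They make up 8 of the 30 arrays of a time course with later samplings at 3, 24 and 72 h. All arrays titled with the 1 h time point were taken, 5 from isoproterenol and 3 from vehicle hearts, with every probe set of the deposited value table. Both groups are cardiac muscle of male Crl:WI(Han) rats, an outbred stock of Wistar origin, with no genetic change named. The dose is labelled 0.5 mg/kg/ml for isoproterenol and 0 for vehicle, whereas the series' design text gives 0.5 mg; the sources used here give neither the rats' age, nor the route of dosing, nor what the vehicle was. Each array is titled a biological replicate, but no label ties arrays to animals; should arrays share an animal, the p-values below cover only the spread between these samples, which may be technical. A whole heart sample mixes cell types, so fewer cells of a type and less RNA per cell cannot be told apart in any result below.

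As background, beta-adrenergic receptors couple to the G protein Gs, which drives adenylyl cyclase to make cAMP. Protein kinase A, the main sensor of cAMP, phosphorylates calcium handling proteins of the cardiomyocyte and the transcription factor CREB, which binds the cAMP response element (CRE) in promoters. Genes that respond without new protein synthesis are called immediate early genes, the best known being Fos, Jun, Egr and Nr4a family members. Many other genes of the first wave encode feedback inhibitors, secreted signals and enzymes, and these are the subject here.

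Levels are given as log2(intensity + 16) after quantile normalization, and a change is the isoproterenol mean minus the vehicle mean on that scale, with its standard error after ±. Adding 16 makes the change of a dim probe set too small, so a group mean under 5.29, the level of the filter on low values, is called dim and the change read as a lower bound. A gene is represented by its probe set with the highest mean level, and it is called higher or lower where the limma adjusted p is under 0.05. Array medians of the deposited intensity ran from 26.4 to 45.1 for isoproterenol and from 34 to 45.4 for vehicle (two-sided exact permutation p = 0.339 over 56 splits). Normalized levels correlated at 0.962 to 0.971 between isoproterenol arrays, at 0.974 to 0.978 between vehicle arrays and at 0.952 to 0.961 between the groups. The gap between 3′ and 5′ probe sets of beta-actin, a sign of RNA integrity, was 1.85 ± 0.184 (SD, n = 5) with isoproterenol and 1.56 ± 0.0298 (SD, n = 3) with vehicle, and that of GAPDH 0.416 ± 0.0568 and 0.428 ± 0.0365. Neither gap differed past the threshold (two-sided exact permutation p = 0.107 and 0.768); their part in the results was not tested. Vehicle arrays carry the numbers 4 to 6 and isoproterenol arrays 33 to 37, so treatment and the order of the arrays cannot be told apart. At the limma threshold, the vehicle group of 1 h stood above the mean of the later vehicle groups in 3 of 24292 probe sets (0.0123%), among them those of Fos (by 2.29) and of Sgk1, a kinase gene that responds to serum and glucocorticoid (by 1.19). Counted in either direction, such probe sets were 0 without vehicle replicate 1 or 2 and 371 with array weights.

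Of the 12451 genes tested, 425 (3.41%) were called 1 h after isoproterenol, 295 (2.37%) higher and 130 (1.04%) lower. By probe set, the test called 643 of 24292 (2.65%), with 445 (1.83%) higher and 198 (0.815%) lower. The rises were larger than the falls: 180 of the 295 were over 2-fold and 62 over 4-fold, against 43 and 2 of the 130. The median change was 1.18 among the genes called higher and -0.88 among those called lower, with a median of -0.03 over all genes tested. In all 295 genes called higher, every isoproterenol array lay above every vehicle array, a separation seen in 7.5% of all genes tested; in 128 of the 130 called lower every isoproterenol array lay below, a separation seen in 8.54%. The calls that rose held better when an array was left out: 186 of the 295 kept theirs in all 8 fits without 1 array of 1 h, but 38 of the 130 that fell. Without vehicle replicate 1 or 3, the number of genes called lower was 59 or 58, without vehicle replicate 2 it was 68, and without isoproterenol replicate 3 it was 86. A gene named below kept its call in all 8 of those fits unless the array whose omission ended it is given. Where the text does not say so in place, Ccl7, Plaur, Gdf15, S100a9 and Il1r2 were dim in vehicle, and Cep95, Tspyl4 and Prf1 with isoproterenol. Only 17 of the 295 belong to a list of 29 best known immediate early genes, so 278 rises lie outside it. In 14 of the 25 gene lists below, limma called genes higher but 0 lower. They hold 347 measured entries, a gene being counted in each list that holds it. Of these entries 9 were lower at an unadjusted limma p under 0.05, against 834 of all 12451 genes tested. The 14 were picked for having 0 called lower, so the small count follows in part from that choice.

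**Figure D1:**
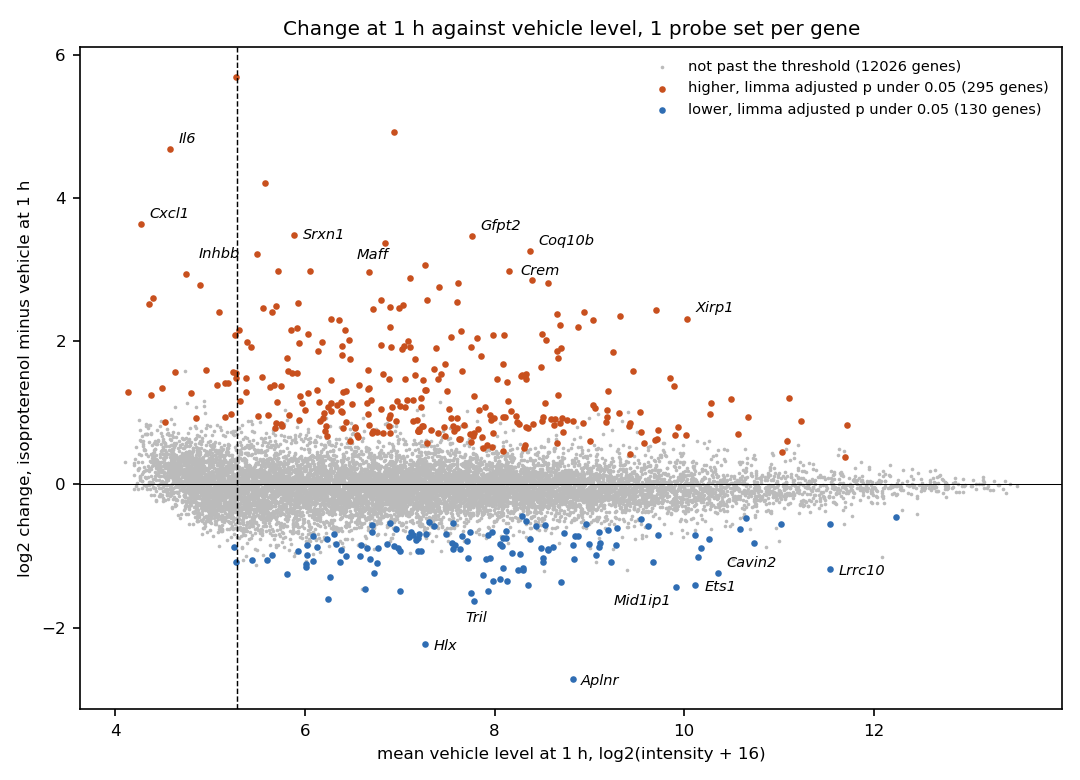
Each point is 1 of the 12451 genes tested, with the mean vehicle level at 1 h in log2(intensity + 16) on the x axis and the log2 change, isoproterenol minus vehicle, on the y axis; the dashed line marks the filter level of 5.29. Orange points are the 295 genes called higher and blue points the 130 called lower, and the rises reach 5.69 while the falls reach -2.72.

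The best known immediate early genes set the scale. Of 28 measured, 17 were higher and 0 lower, with a median change of 1.65, and Fosb, which pairs with JUN proteins, changed most (5.69 ± 0.26, dim in vehicle). Nr4a3, an orphan nuclear receptor, read 6.24, 6.38 and 8.19 in the vehicle arrays and 11.79, 11.72, 11.92, 11.67 and 12.17 with isoproterenol. Of the list, 11 did not pass, among them Jun at 0.44 ± 0.23, Egr3 at -0.14 ± 0.30 and the phosphatase gene Dusp1 at 0.32 ± 0.21. In the vehicle hearts of 1 h, 23 of the 28 were above the later vehicle groups, by a median of 0.32, against a median of 0.01 over all genes tested.

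Some promoters of the first wave hold the CRE itself, and 5 with a full CRE or an AP-1 site are shown as examples from the genes described below. They are not all: Skil also holds a full CRE, and Bag3, Ccl7, Il16, Mt2A and Xirp1 hold an AP-1 site. Srxn1 was taken for having the most AP-1 sites among the genes named by rule. The sequences are the 250 bases before the start of the gene on its own strand, 5′ to 3′, from RefSeq on build GRCr8, with the full CRE (TGACGTCA) or the AP-1 site (TGANTCA) in capitals. Il6, Maff and Ch25h rose, with a full CRE that begins 162, 51 and 77 bases before the start. Tspyl4 fell, with a full CRE that begins 72 bases before the start. Srxn1 rose, with an AP-1 site that begins 62 bases before the start. A second AP-1 site of Srxn1 begins 5 bases before the start, runs past the end of the printed bases and is not in capitals.
Il6 (chr4:5894576-5894825, minus strand): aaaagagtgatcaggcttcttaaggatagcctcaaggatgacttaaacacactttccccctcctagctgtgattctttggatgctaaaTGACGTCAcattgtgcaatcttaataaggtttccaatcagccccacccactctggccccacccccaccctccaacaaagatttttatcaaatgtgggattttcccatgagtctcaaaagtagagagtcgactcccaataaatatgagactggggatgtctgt
Maff (chr7:112792537-112792786, plus strand): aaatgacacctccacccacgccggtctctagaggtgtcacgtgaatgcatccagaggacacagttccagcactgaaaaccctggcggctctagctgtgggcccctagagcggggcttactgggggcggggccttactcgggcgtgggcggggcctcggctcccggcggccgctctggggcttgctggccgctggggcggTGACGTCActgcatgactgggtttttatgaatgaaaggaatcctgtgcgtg
Ch25h (chr1:241429367-241429616, minus strand): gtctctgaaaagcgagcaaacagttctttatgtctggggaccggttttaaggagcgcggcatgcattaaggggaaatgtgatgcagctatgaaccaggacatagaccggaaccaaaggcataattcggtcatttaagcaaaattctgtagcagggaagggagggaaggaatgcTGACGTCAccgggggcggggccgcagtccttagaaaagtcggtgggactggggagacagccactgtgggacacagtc
Srxn1 (chr3:161064562-161064811, plus strand): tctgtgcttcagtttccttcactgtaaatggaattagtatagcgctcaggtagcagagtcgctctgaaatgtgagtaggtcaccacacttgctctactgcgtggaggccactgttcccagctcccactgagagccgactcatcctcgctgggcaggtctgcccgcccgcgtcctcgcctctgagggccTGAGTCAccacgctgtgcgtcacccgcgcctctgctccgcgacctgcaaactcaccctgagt
Tspyl4 (chr20:39653538-39653787, plus strand): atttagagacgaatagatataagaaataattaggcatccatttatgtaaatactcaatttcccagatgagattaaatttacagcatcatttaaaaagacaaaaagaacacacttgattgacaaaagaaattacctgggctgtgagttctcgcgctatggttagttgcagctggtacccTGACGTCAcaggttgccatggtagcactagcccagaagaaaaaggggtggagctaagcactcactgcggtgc

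The table of promoters held 239 of the 295 genes called higher, 110 of the 130 called lower and 10293 of the 12451 tested, and motifs were searched on both strands from 250 bases before to 50 after the start. The CRE core TGACG, which is also part of the full site, was found in 42.7% of the promoters of genes called higher, in 20% of those called lower, in 30.9% of all genes tested and in 22% of all 27457 promoters. The full CRE was found in 6.69%, 3.64%, 3.08% and 1.91% in the same order. AP-1 sites stood in 8.79%, 3.64%, 5.07% and 7.33%, and TATAAA in 12.6%, 10.0%, 7.53% and 14.3%. The heat shock element GAANNTTC was found in 5.02% of promoters of genes called higher and 5.76% of all genes tested, and a loose form of the NF-kB site (GGG and CC with any 5 bases between) in 70.3% and 65.5%. The CArG box, bound by the serum response factor, was found in 2.51%, in 0.909% of those called lower and in 1.30% of all genes tested. Among the 227 promoters of genes called higher outside the best known list, it was found in 1.32%, the CRE core in 41.9% and the full CRE in 6.61%. These shares describe letters in a window, and no test was made of them.

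Secreted signals were among the largest rises outside the best known list. Il6, the acute phase cytokine whose promoter is shown above, read 4.82, 4.72 and 4.20 in the vehicle arrays and 9.65, 9.03, 9.42, 9.71 and 8.53 in the isoproterenol arrays. Every isoproterenol array lay more than 3 log2 units above every vehicle array, and replicate 5 was the lowest. The change was 4.69 ± 0.38 (25.8-fold, limma adjusted p = 2.73e-10), with a dim vehicle level. Cxcl1, a chemokine that attracts neutrophils, read 4.21, 4.22 and 4.39 with vehicle and 8.19, 7.81, 7.98, 8.38 and 7.14 with isoproterenol (3.63 ± 0.35, adjusted p = 1.11e-08). The related Cxcl2 read 4.30, 4.11 and 4.66 with vehicle and 7.07, 7.29, 6.55, 7.14 and 6.35 with isoproterenol (2.52 ± 0.38, adjusted p = 4.50e-05). Both were dim in vehicle, and the 2 chemokines had their lowest isoproterenol value in replicate 5, as Il6 did. Of 20 chemokine genes measured, 4 were higher and 0 lower, with a median of 0.12. Of all genes tested, 2.37% were higher and 1.04% lower, and the counts of every list are to be read beside these shares. No list was tested as a set. Besides Cxcl1 and Cxcl2, the chemokines called were Ccl2, which attracts monocytes (2.16 ± 0.41), and its neighbour Ccl7 (1.59 ± 0.38). The call on Ccl7 was lost without vehicle replicate 2 or 3 (adjusted p = 0.0667 and 0.145). Cxcl3 did not pass at 0.35 ± 0.31, nor Cxcl10 at 0.23 ± 0.53.

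Of 18 measured genes of the IL-6 family and the SOCS inhibitors, 2 were higher and 0 lower. The second was Socs3, the feedback inhibitor of IL-6 receptor signalling, which read 4.44, 4.46 and 4.30 with vehicle and 7.2, 6.81, 6.72, 7.60 and 6.68 with isoproterenol (2.60 ± 0.28, adjusted p = 6.95e-08). Its vehicle level was dim and the groups were far apart. The related cytokines Lif (0.10 ± 0.25) and Osm (0.49 ± 0.31), the shared receptor subunit Il6st (0.25 ± 0.11) and Socs1 (0.43 ± 0.34) did not pass.

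Among 22 measured NF-kB subunits, targets and feedback genes, 5 were higher and 0 lower, and the median change was 0.31. Nfkbiz and Bcl3, both nuclear members of the I-kappa-B family, rose by 1.94 ± 0.29 and 1.51 ± 0.22, but a further pair of Bcl3 probe sets, at 0.16 and 0.48, did not pass. Nfkbia, the classical inhibitor, was at 0.56 ± 0.34 and Tnfaip3 at -0.24 ± 0.22, and neither passed. The calls of the other 3 depended on single arrays: Birc3 (0.82 ± 0.19) was lost without vehicle replicate 3 (adjusted p = 0.149), Zc3h12a, an RNase (1.15 ± 0.25), without vehicle replicate 1 or 3 (adjusted p = 0.0515 and 0.0688), and the adhesion molecule Icam1 (1.13 ± 0.30) without vehicle replicate 1, 2 or 3, and without isoproterenol replicate 3 or 4 (adjusted p = 0.183, 0.117, 0.0607, 0.0525 and 0.0662). Leaving out vehicle replicate 1 or 3 reduced the list's rises to 3 or 2.

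The activin subunit Inhbb was the largest rise in the BMP and TGF-beta pathway. It read 5.55, 5.45 and 5.48 in the vehicle arrays and 9.0, 8.91, 8.44, 8.78 and 8.46 in the isoproterenol arrays. The vehicle values nearly coincided, far below all 5 isoproterenol values, and the change was 3.23 ± 0.39 (9.36-fold, limma adjusted p = 7.08e-07). Of 28 pathway genes measured, 3 were higher and 0 lower, with a median of 0.13. The other subunit gene Inhba did not pass (0.77 ± 0.31), nor did the activin antagonist Fst (0.57 ± 0.28) or Tgfb1 (0.58 ± 0.27). Skil, a repressor of SMAD signalling with a CRE in its promoter, was higher by 0.85 ± 0.19, a call lost without vehicle replicate 2 (adjusted p = 0.0626), and the pseudoreceptor Bambi by 1.09 ± 0.26, a call lost without vehicle replicate 1 or 3 (adjusted p = 0.0692 and 0.108).

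**Figure D2:**
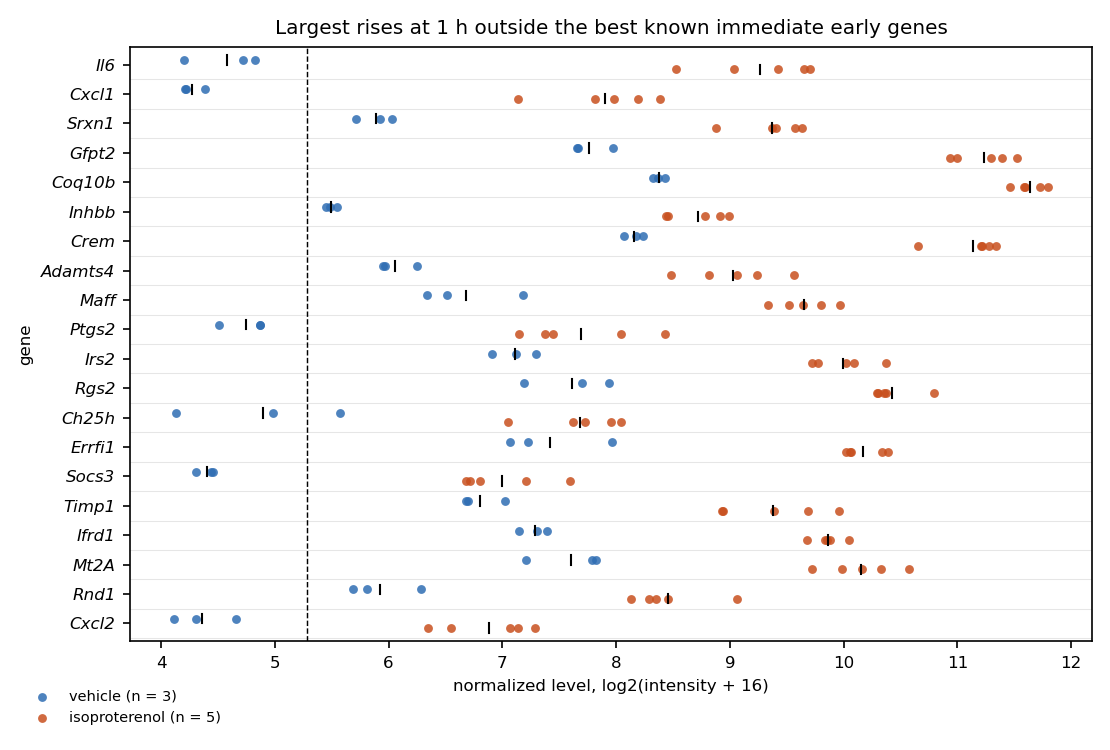
Normalized level in log2(intensity + 16) of the 20 largest rises outside the best known immediate early genes, with 1 point per array (3 vehicle, 5 isoproterenol) and a bar at each group mean; the dashed line marks the filter level of 5.29. The genes were chosen so that the 2 groups do not overlap; Il6, Cxcl1, Ptgs2, Ch25h, Socs3 and Cxcl2 have vehicle means left of the line.

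Some regulators of cAMP and G protein signalling were higher, and neither Adrb1 nor Adrb3 passed. Adrb1, the main beta-adrenergic receptor of the heart, read 5.66, 5.99 and 6.03 with vehicle and 6.17, 6.46, 6.48, 6.10 and 5.93 with isoproterenol, and the groups overlapped (0.34 ± 0.22, adjusted p = 0.566). Adrb3, a related receptor, was dim in both groups (0.33 ± 0.25). Of 26 measured genes of beta-adrenergic and cAMP signalling, 3 were higher and 0 lower. Akap12, which anchors protein kinase A, read 8.63, 8.43 and 8.55 with vehicle and 10.69, 10.53, 10.43, 10.64 and 10.52 with isoproterenol. Both groups were tight and well apart, and the change was 2.02 ± 0.18 (4.05-fold, adjusted p = 1.38e-09). The kinase subunit Prkar2b was higher by 0.82 ± 0.18, lost without vehicle replicate 2 or 3 (adjusted p = 0.0511 and 0.0655), and the CREB coactivator Crtc2 by 0.61 ± 0.17, lost in 7 of the 8 fits without 1 array (adjusted p 0.0641 to 0.404). The list's count fell to 1 without vehicle replicate 3.

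Rgs2, which shuts off Gq and restrains adenylyl cyclase, read 7.70, 7.19 and 7.94 with vehicle and 10.30, 10.30, 10.37, 10.80 and 10.36 with isoproterenol. All 5 isoproterenol values exceeded the highest vehicle value by over 2 log2 units (2.82 ± 0.27, 7.04-fold, adjusted p = 7.21e-09). Pde10a, a phosphodiesterase that degrades cAMP and cGMP, read 5.66, 6.07 and 6.02 with vehicle and 8.44, 7.97, 8.04, 8.09 and 7.94 with isoproterenol (2.18 ± 0.20, adjusted p = 3.27e-09). A second Pde10a probe set rose less, by 0.95 ± 0.19 (limma adjusted p = 0.00221). Of 26 phosphodiesterase and RGS genes, 3 were higher and 0 lower, with a median change of -0.03; the third was Rgs16 (1.03 ± 0.24), lost without vehicle replicate 3 (adjusted p = 0.0695). Pde4b (0.61 ± 0.18, adjusted p = 0.0595) and Pde3a (0.64 ± 0.34) did not pass. Without isoproterenol replicate 2 or 4, 1 member of the list was called lower.

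Of 22 measured CREB targets, a list drawn up with earlier results of these data known, 13 were higher and 0 lower, with a median of 1.78 against -0.03 over all genes tested. Crem, which encodes both cAMP-responsive activators and the short repressor ICER, read 8.17, 8.07 and 8.23 with vehicle and 11.34, 11.21, 11.22, 10.66 and 11.28 with isoproterenol. Replicate 4 was the lowest of the isoproterenol arrays and still more than 2 log2 units above vehicle (2.98 ± 0.17, 7.91-fold, adjusted p = 4.41e-14). Of 5 further Crem probe sets, 4 were higher, by 1.73 to 3.07, and 1 did not pass, at 0.83. Irs2, the insulin receptor substrate that CREB induces in fasted liver, read 7.12, 7.29 and 6.91 with vehicle and 9.78, 10.02, 10.09, 9.73 and 10.37 with isoproterenol (2.89 ± 0.23, adjusted p = 1.73e-10). Gem, a GTPase that blocks L-type calcium channels, rose by 2.49 ± 0.28. Gadd45b and Gadd45g, growth arrest genes that activate stress kinases, rose by 2.47 ± 0.28 and 2.06 ± 0.24. Pck1, the gluconeogenic enzyme PEPCK, rose by 2.00 ± 0.33, the kinase gene Sik1, which phosphorylates CREB coactivators, by 1.69 ± 0.31, and the bZIP repressor Nfil3 by 1.93 ± 0.19. The clock gene Per1 (1.89 ± 0.52) and Ppargc1a, the coactivator of mitochondrial genes (0.86 ± 0.24), each lost the call in 7 of the 8 fits without 1 array, with adjusted p up to 0.224 and 0.175. The count for the list stayed within 1.5 times of 13 in each of those fits. Rgs2 and Pde10a belong to this list as well as to the one above.

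Transcription factors outside the best known families went both ways. Of 32 measured bZIP, bHLH and repressor genes, 8 were higher and 3 lower, with a median of 0.06. Maff, a small MAF protein without a transactivation domain, read 7.18, 6.34 and 6.51 in the vehicle arrays and 9.64, 9.34, 9.97, 9.52 and 9.80 in the isoproterenol arrays. Vehicle replicate 1 was the highest control and lay below every isoproterenol array (2.97 ± 0.19, adjusted p = 8.65e-13). Its relatives Mafk (0.90 ± 0.14) and Mafg (0.73 ± 0.17) were also higher, the call on Mafg being lost without vehicle replicate 1 (adjusted p = 0.196). Csrnp1, a nuclear protein induced by AXIN, rose by 2.48 ± 0.22, Cebpb, a factor of the acute phase response, by 1.87 ± 0.24, and the clock repressor Bhlhe40 by 1.19 ± 0.24. Cebpd at 1.16 ± 0.34 did not pass. Among the falls were Tcf4, an E protein (-0.82 ± 0.16), and the Notch targets Hey2 (-0.90 ± 0.20), lost without vehicle replicate 1 or 2 (adjusted p = 0.0556 and 0.0939), and Hey1 (-0.86 ± 0.22), lost without vehicle replicate 1 or 3, and without isoproterenol replicate 1 (adjusted p = 0.124, 0.12 and 0.063); without vehicle replicate 1 the list kept 1 lower member. Of 18 measured Notch pathway genes only those 2 passed, with 0 higher, and none without vehicle replicate 1.

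Of 42 measured homeobox, T-box, GATA, SOX and ETS genes, 1 was higher and 5 lower, with a median of -0.11 against -0.03 over all genes tested, of which 2.37% were higher and 1.04% lower. Hlx, a homeobox gene of mesenchyme and lymphoid cells, read 7.69, 7.51 and 6.60 with vehicle and 4.54, 4.68, 5.00, 5.63 and 5.35 with isoproterenol. The highest isoproterenol array lay below the lowest vehicle array, and the isoproterenol mean was dim (-2.23 ± 0.23, adjusted p = 3.17e-08). Ets1, an ETS factor strongly expressed in endothelium, read 10.34, 9.89 and 10.10 with vehicle and 8.57, 8.79, 8.67, 8.76 and 8.76 with isoproterenol. Its isoproterenol arrays lay close together and all below the vehicle arrays, and the change was -1.40 ± 0.12 (2.64-fold lower, adjusted p = 8.29e-10). Its relative Ets2 went the other way, from 8.99, 8.92 and 9.25 to 10.19, 10.06, 9.96, 10.05 and 10.36 (1.07 ± 0.14, adjusted p = 2.84e-06); the call on Ets2 was absent when arrays were not normalized to each other (adjusted p = 0.525). Meox2, a homeobox gene that restrains proliferation of vascular cells, read 8.37, 8.25 and 8.29 with vehicle and 7.16, 7.10, 7.32, 6.95 and 7.16 with isoproterenol (-1.16 ± 0.17). The falls of Sox4 (-0.87 ± 0.22), lost without vehicle replicate 1 or 3, and without isoproterenol replicate 5 (adjusted p = 0.273, 0.114 and 0.0693), and of Elk3 (-0.64 ± 0.18), lost in 7 of the 8 fits without 1 array (adjusted p 0.0678 to 0.313), were smaller, and the list kept 3 lower members without vehicle replicate 3 or isoproterenol replicate 5. Cardiac factors such as Nkx2-5 (-0.04 ± 0.16), Tbx5 (0.08 ± 0.25) and Gata4 (0.27 ± 0.16) did not pass. Of 11 Krüppel-like and SP genes outside the best known list, 0 were higher and 1 lower, Klf15, a repressor of cardiac hypertrophy (-0.85 ± 0.23, with other probe sets at 0.23 and -0.68 that did not pass), lost in 6 of the 8 fits (adjusted p 0.0631 to 0.241).

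Inhibitors of growth factor signalling also split. Of 19 measured MAP kinase phosphatases and Ras feedback inhibitors, 4 were higher and 2 lower. Errfi1, which blocks the EGF receptor kinase, read 7.96, 7.23 and 7.07 with vehicle and 10.34, 10.39, 10.07, 10.05 and 10.02 with isoproterenol. Every isoproterenol array lay more than 2 log2 units above every vehicle array (2.76 ± 0.30, 6.76-fold, adjusted p = 1.12e-07). Rasd1, a Ras-like GTPase, rose by 1.59 ± 0.22, and Dusp5, a nuclear ERK phosphatase, by 1.54 ± 0.26; Dusp5 did not pass when arrays were not normalized to each other (adjusted p = 0.119). Spry1, a Sprouty inhibitor of receptor tyrosine kinases, fell from 7.97, 8.08 and 8.23 to 6.85, 7.17, 6.72, 7.08 and 6.78 (-1.17 ± 0.18, adjusted p = 5.53e-05), whereas Spry4 was higher by 0.75 ± 0.17, lost without vehicle replicate 2 or 3 (adjusted p = 0.0719 and 0.0756). Dusp7 was lower (-1.09 ± 0.23), lost without vehicle replicate 3 (adjusted p = 0.0589). Of 27 EGF family and other growth factor genes measured, limma called 0 higher and 0 lower (4 and 0 at an unadjusted p under 0.05), with a median of 0.17; among those not called were Hbegf (0.56 ± 0.29), Areg (0.90 ± 0.35) and Vegfa (0.26 ± 0.19).

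Of 27 measured genes of coagulation, plasminogen, prostaglandin and matrix proteolysis, 9 were higher and 1 lower, with a median change of 0.17. Adamts4, an aggrecanase, read 6.25, 5.95 and 5.97 with vehicle and 9.06, 9.57, 9.24, 8.81 and 8.48 with isoproterenol (2.98 ± 0.31, 7.87-fold, adjusted p = 5.36e-08). Adamts1 and Adamts9, proteases that cleave versican, rose by 2.10 ± 0.19 and 2.04 ± 0.15. Adamts5 went down instead (-1.03 ± 0.28), a call lost in 7 of the 8 fits without 1 array (adjusted p 0.0658 to 0.232). Timp1, an inhibitor of matrix metalloproteinases, read 6.70, 6.68 and 7.02 with vehicle and 9.69, 8.94, 9.39, 9.96 and 8.93 with isoproterenol (2.58 ± 0.51, adjusted p = 0.00179). Ptgs2, the inducible prostaglandin synthase COX-2, read 4.87, 4.51 and 4.87 with vehicle and 8.43, 7.45, 7.38, 8.04 and 7.15 with isoproterenol (2.94 ± 0.32, adjusted p = 1.12e-07). Its vehicle level was dim, and isoproterenol replicates 1 and 4 were the highest. Plaur, the urokinase receptor, rose by 2.09 ± 0.28, Procr, the endothelial protein C receptor, by 1.95 ± 0.28, Tfpi2, a serine protease inhibitor, by 1.6 ± 0.23, and Plat, tissue plasminogen activator, by 1.12 ± 0.14. Plau (-0.27 ± 0.35), F3 or tissue factor (0.00 ± 0.33) and the constitutive Ptgs1 (0.02 ± 0.24) did not pass.

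The largest measured fall was in a vascular receptor, though that of Hlx, dim with isoproterenol, is a lower bound. Aplnr, the receptor of apelin and highly expressed by endothelium, read 9.12, 8.54 and 8.82 in the vehicle arrays and 5.73, 5.91, 6.31, 6.55 and 6.03 in the isoproterenol arrays. The nearest arrays of the 2 groups were almost 2 log2 units apart, and the change was -2.72 ± 0.31 (6.58-fold lower, adjusted p = 2.51e-07). A second, dim Aplnr probe set was at -0.05 ± 0.33 and did not pass. The ligand gene Apln did not pass either (-0.00 ± 0.26). Sphk1, which makes sphingosine 1-phosphate, read 4.66, 5.51 and 5.11 with vehicle and 7.70, 7.24, 7.52, 7.52 and 7.51 with isoproterenol (2.41 ± 0.24, 5.3-fold, dim in vehicle, adjusted p = 2.06e-08). Of 41 measured endothelial receptor and vasoactive genes, 3 were higher and 3 lower. Beyond Sphk1 and Aplnr, the calls of S1pr3 (1.04 ± 0.25) were lost without vehicle replicate 1, 2 or 3 (adjusted p = 0.0595, 0.0627 and 0.0532), of Gpr4 (0.81 ± 0.21) without vehicle replicate 1 or 2, and without isoproterenol replicate 4 (adjusted p = 0.173, 0.131 and 0.0588), of Cxcr4, the CXCL12 receptor (-1.04 ± 0.26), without vehicle replicate 1 or 3, and without isoproterenol replicate 3 (adjusted p = 0.113, 0.186 and 0.0632), and of Nrp1, a VEGF coreceptor (-0.62 ± 0.17), in 5 of the 8 fits (adjusted p 0.0504 to 0.25). The list thus held 1 gene higher without vehicle replicate 1 or 2, and 1 lower without vehicle replicate 1 or 3 or isoproterenol replicate 3.

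Other large falls came from several kinds of gene. Tril, a cofactor of Toll-like receptor 4, read 7.80, 7.71 and 7.83 with vehicle and 6.09, 6.36, 5.98, 6.01 and 6.33 with isoproterenol (-1.63 ± 0.19, 3.09-fold lower, adjusted p = 5.87e-07). Tnfsf10, the death ligand TRAIL, read 7.78, 7.65 and 7.84 with vehicle and 5.75, 6.42, 6.56, 6.12 and 6.37 with isoproterenol (-1.51 ± 0.30, adjusted p = 0.00168). Il16, a chemoattractant for CD4+ cells, and Zbtb5, a zinc finger repressor, were dim with isoproterenol, which makes their falls a lower bound in size (-1.59 ± 0.22 and -1.46 ± 0.24). Plxnd1, a semaphorin receptor that guides vessels, read 8.05, 8.13 and 8.21 with vehicle and 6.65, 6.34, 7.09, 7.11 and 6.69 with isoproterenol (-1.36 ± 0.22, adjusted p = 8.93e-05). Cavin2, a coat protein of caveolae, read 10.63, 10.08 and 10.36 with vehicle and 9.08, 9.05, 9.38, 9.12 and 8.91 with isoproterenol (-1.24 ± 0.20, adjusted p = 0.000121). These genes were chosen among those whose groups do not overlap. Mid1ip1, a regulator of fatty acid synthesis, fell by 1.43 (SE 0.17), and isoproterenol replicate 4 (9.04) lay apart from the other four (8.26 to 8.41). Further falls were Rasl11b, a Ras-like gene (-1.49 ± 0.29), Nxpe1 (-1.49 ± 0.27), Tmem204 (-1.41 ± 0.18), Zfp715 (-1.35 ± 0.21), the inhibitory ligand Cd200 (-1.32 ± 0.18) and the Wnt effector Tcf7 (-1.23 ± 0.21). Among the 20 largest falls, 4 depended on single arrays: Sult1a1, a sulfotransferase (-1.37 ± 0.31), lost without vehicle replicate 2 (adjusted p = 0.115), Tspyl4 (-1.30 ± 0.32), without vehicle replicate 1 or 3, and without isoproterenol replicate 5 (adjusted p = 0.106, 0.141 and 0.0665), Cep95 (-1.26 ± 0.30), without vehicle replicate 2 or 3 (adjusted p = 0.0653 and 0.0928), and the clock output gene Dbp (-1.27 ± 0.35), without vehicle replicate 2 or 3, and without isoproterenol replicate 1, 2, 4 or 5 (adjusted p = 0.152, 0.346, 0.0653, 0.117, 0.0508 and 0.0986).

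**Figure D3:**
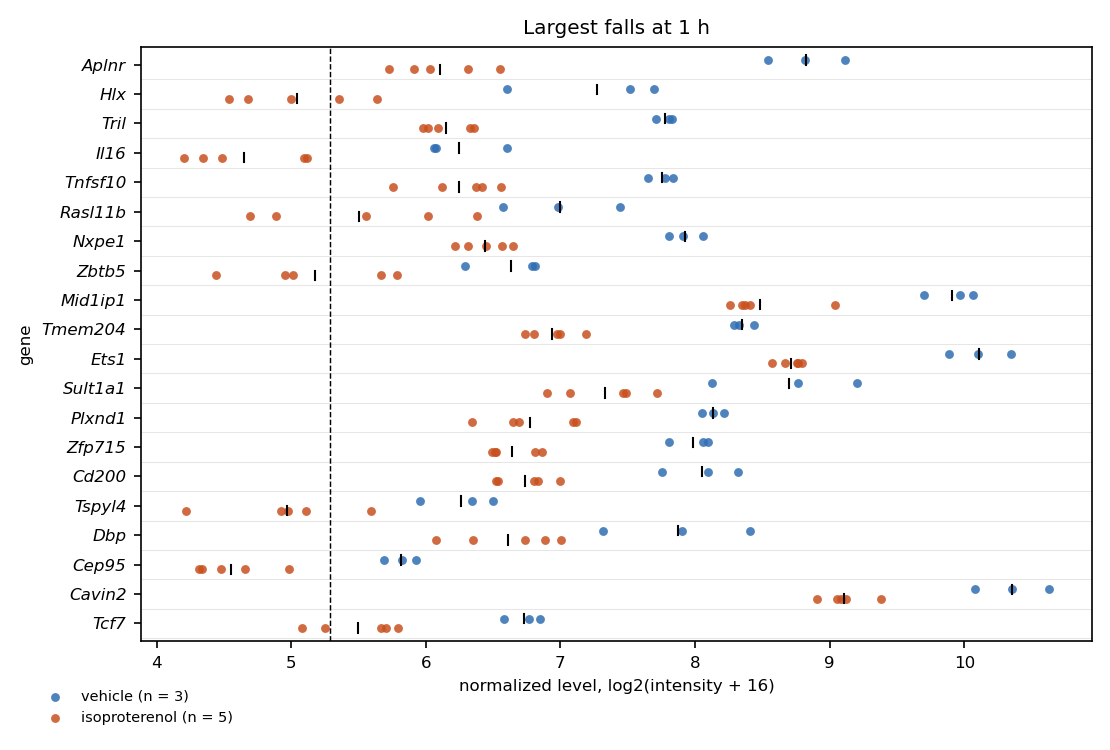
Normalized level in log2(intensity + 16) of the 20 largest falls at 1 h, with 1 point per array (3 vehicle, 5 isoproterenol) and a bar at each group mean; the dashed line marks the filter level of 5.29. The genes were chosen so that the 2 groups do not overlap; Hlx, Il16, Zbtb5, Tspyl4 and Cep95 have isoproterenol means left of the line.

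Some large rises were in metabolic genes. Gfpt2, which commits glucose to the hexosamine pathway, read 7.65, 7.67 and 7.97 with vehicle and 11.40, 10.94, 11.00, 11.52 and 11.30 with isoproterenol (3.47 ± 0.23, 11.1-fold, adjusted p = 3.29e-12). Coq10b, a protein needed for coenzyme Q function in mitochondria, read 8.37, 8.33 and 8.43 with vehicle and 11.59, 11.59, 11.73, 11.47 and 11.80 with isoproterenol (3.26 ± 0.16, 9.57-fold, adjusted p = 1.18e-15). Arrays of the same group lay close together, and the groups were 3 log2 units apart. Ch25h, cholesterol 25-hydroxylase, read 4.13, 5.57 and 4.98 with vehicle and 7.96, 7.62, 7.72, 8.04 and 7.05 with isoproterenol (2.79 ± 0.43, adjusted p = 5.53e-05), with a dim and variable vehicle level. Of 38 measured regulators of glucose, lipid and polyamine metabolism, 5 were higher and 0 lower: Gfpt2, Sat1, which acetylates polyamines (2.15 ± 0.28), Angptl4, an inhibitor of lipoprotein lipase (1.98 ± 0.38), Insig1, which retains the sterol sensor in the endoplasmic reticulum (1.68 ± 0.17), and Pdk4, which inhibits pyruvate dehydrogenase (1.20 ± 0.29), lost without vehicle replicate 1 or 3 (adjusted p = 0.0539 and 0.136). Hk2 (0.10 ± 0.27), Cpt1b (0.03 ± 0.17) and Odc1 (0.31 ± 0.17) did not pass.

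Stress genes rose in part. Of 27 measured antioxidant, metal and heme genes, 5 were higher and 0 lower. Srxn1, sulfiredoxin, which repairs oxidised peroxiredoxins and whose promoter with an AP-1 site is shown above, read 5.71, 5.92 and 6.03 with vehicle and 9.37, 8.88, 9.57, 9.41 and 9.64 with isoproterenol (3.48 ± 0.26, 11.2-fold, adjusted p = 2.30e-11). A second Srxn1 probe set rose less, by 1.27 ± 0.32 (limma adjusted p = 0.0217). Mt2A, a metallothionein, read 7.82, 7.21 and 7.79 with vehicle and 10.33, 10.17, 10.57, 9.98 and 9.72 with isoproterenol (2.55 ± 0.46, adjusted p = 0.00047). Gclc, the catalytic subunit of glutathione synthesis, rose by 1.35 ± 0.18 (adjusted p = 0.246 with no normalization between arrays; a second probe set, at 0.59, did not pass) and thioredoxin reductase Txnrd1 by 0.84 ± 0.18, whereas Nqo1 (0.18 ± 0.15) and Gclm (-0.15 ± 0.16) did not pass. Hmox1, heme oxygenase, was higher by 1.33 ± 0.37, lost in all 8 fits without 1 array (adjusted p 0.06 to 0.293). Of 29 heat shock chaperones, 5 were higher and 0 lower. The stress-inducible Hspa1a read 8.23, 9.0 and 9.61 with vehicle and 11.77, 11.17, 10.81, 12.17 and 10.82 with isoproterenol (2.40 ± 0.34, adjusted p = 1.48e-05), and its cochaperone Dnajb1 7.87, 7.99 and 8.10 with vehicle and 10.55, 9.14, 9.89, 10.92 and 9.87 with isoproterenol (2.09 ± 0.39, adjusted p = 0.000693). In both, isoproterenol replicates 4 and 1 were the highest. Dnajb4 (0.94 ± 0.13) and Bag3 (0.71 ± 0.13) were also higher, but not with no normalization between arrays (adjusted p = 0.571 and 0.743), and Hsp90ab1 (0.39 ± 0.09) was lost without vehicle replicate 1 or 2, and without isoproterenol replicate 4 (adjusted p = 0.18, 0.108 and 0.0515). With arrays centred on their medians, 3 chaperones and 3 antioxidant genes were called, and with no normalization 2 and 2.

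Of 33 measured growth arrest, p53 and survival genes, 7 were higher and 1 lower. Besides the Gadd45 genes, Cdkn1a, the cell cycle inhibitor p21, rose by 1.91 ± 0.25 (a second probe set, at 0.75, did not pass), Arrdc3, an arrestin domain protein, by 1.48 ± 0.18 and the cyclin gene Ccnl1 by 1.39 ± 0.20. Arrdc3 went from 10.01, 9.59 and 9.95 to 11.45, 11.72, 11.23, 10.94 and 11.31, and it did not pass when arrays were not normalized to each other (adjusted p = 0.0767). Its relative Arrdc2 was lower (-1.10 ± 0.27), lost without vehicle replicate 1 or 2 (adjusted p = 0.0877 and 0.0889); Mcl1 (0.94 ± 0.21) was lost without vehicle replicate 2 or 3 (adjusted p = 0.0838 and 0.0517), and Plk2 (0.88 ± 0.24) in 7 of the 8 fits (adjusted p 0.0505 to 0.259). The p53 targets Mdm2 (-0.00 ± 0.13), Ccng1 (-0.20 ± 0.12) and Sesn1 (-0.22 ± 0.23) did not pass. Ifrd1, a regulator of differentiation outside these lists, read 7.15, 7.39 and 7.31 with vehicle and 9.88, 9.68, 9.83, 9.86 and 10.05 with isoproterenol (2.58 ± 0.24, adjusted p = 2.72e-09). Of 21 glucocorticoid targets 6 were higher and 0 lower, the largest being Errfi1, Mt2A, Angptl4 and Cdkn1a, all given above; Fkbp5 (0.18 ± 0.19) and Tsc22d3 (-0.04 ± 0.17) did not pass.

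Few genes of the contractile apparatus passed. Xirp1, a Z-disc and intercalated disc protein that binds actin, read 9.75, 10.16 and 10.19 with vehicle and 12.43, 12.07, 12.40, 12.48 and 12.35 with isoproterenol (2.32 ± 0.16, 4.98-fold, adjusted p = 1.12e-11). The groups were nearly 2 log2 units apart. Rnd1, a small GTPase that loosens stress fibres, read 5.81, 5.68 and 6.28 with vehicle and 8.13, 8.29, 8.46, 8.35 and 9.06 with isoproterenol (2.53 ± 0.33, adjusted p = 2.70e-06). Lrrc10, a cardiomyocyte protein of the Z-disc and T-tubules, fell from 11.57, 11.63 and 11.42 to 10.72, 10.26, 10.27, 10.63 and 9.88 (-1.18 ± 0.18, 2.27-fold lower, adjusted p = 4.12e-05). Of 33 measured Z-disc, cytoskeletal and related genes these were 3 of the 4 that passed; the other was Tubb6 (1.47 ± 0.39), lost in 6 of the 8 fits (adjusted p 0.0583 to 0.163). Of 31 cardiac ion channels limma called 0 higher and 0 lower (0 and 1 at an unadjusted p under 0.05), with a median of -0.09, and of 16 hypertrophy and fetal genes 1 was higher, Gdf15 (0.92 ± 0.26), lost in 6 of the 8 fits (adjusted p 0.0768 to 0.46). The natriuretic peptides Nppa (0.89 ± 0.49) and Nppb (0.29 ± 0.23) and Myh7 (0.50 ± 0.29) did not pass. Of 26 RNA decay genes 2 were higher, Zc3h12a, given above, and Elavl1 (0.42 ± 0.11, with other probe sets at -0.14 and 0.34 that did not pass), lost in 6 of the 8 fits (adjusted p 0.0517 to 0.188), and the list held 0 without vehicle replicate 1 or 3.

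**Figure D4:**
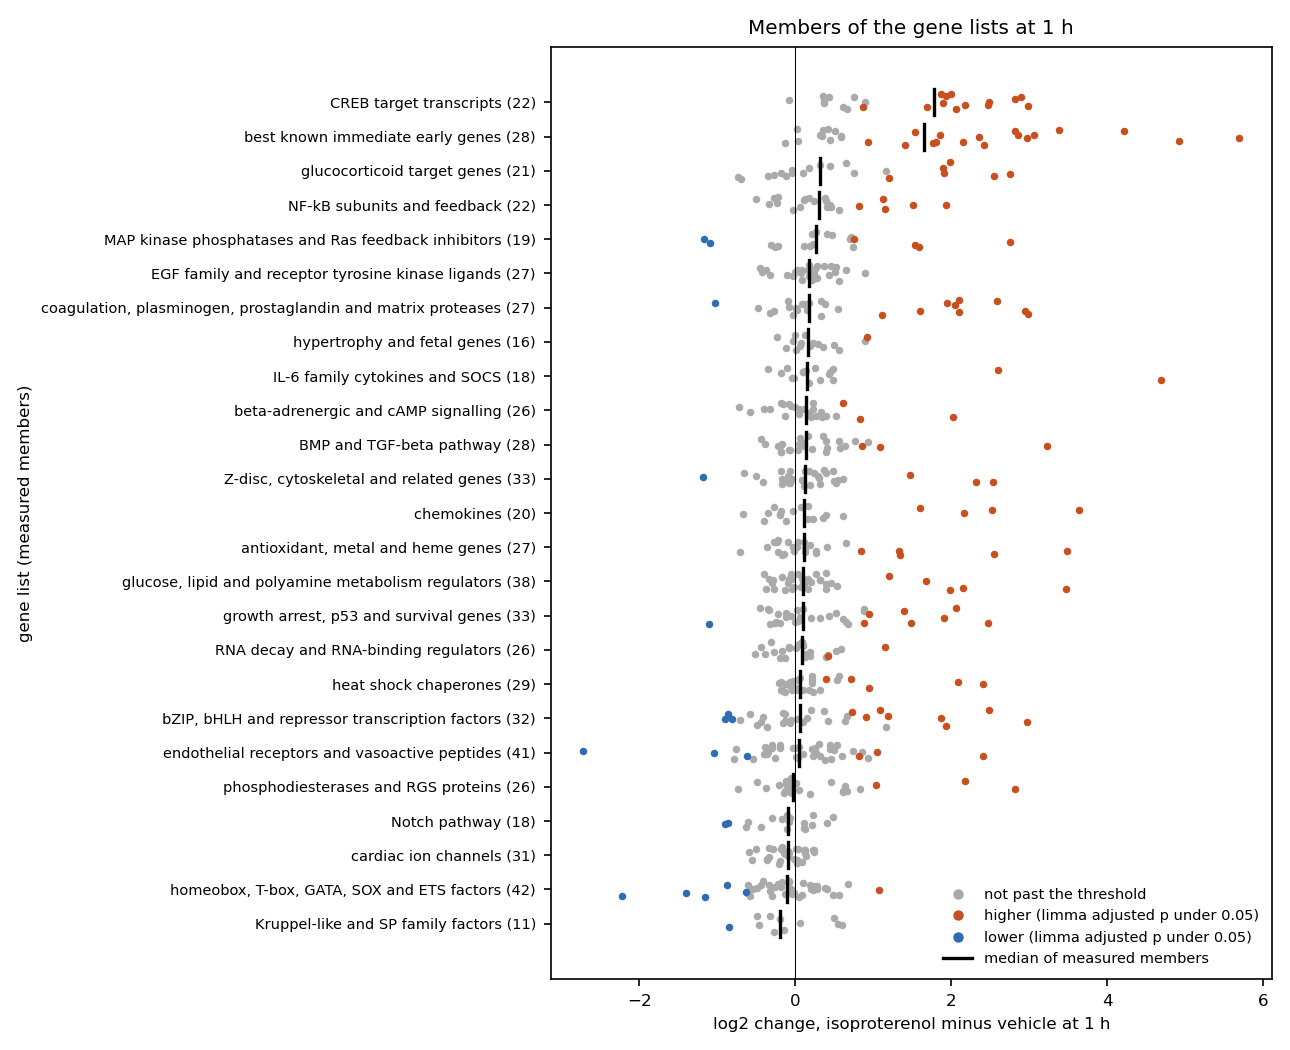
Each point is 1 measured member of 1 of the 25 gene lists, placed by its log2 change at 1 h, isoproterenol minus vehicle, with orange for higher, blue for lower and grey for not past the limma threshold, and a black bar at the median of the list. The medians of the CREB targets (1.78) and of the best known immediate early genes (1.65) stand apart from those of the other lists, which lie between -0.20 and 0.32. The lists were chosen with earlier results of these data known.

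Markers were read to see which cells the samples held. Of 9 cardiomyocyte markers measured none was dim in either group, and limma called 0, also at an unadjusted p under 0.05: their summed level was 73234 to 76213 with isoproterenol and 74690 to 75359 with vehicle. Summed neutrophil markers did not overlap, at 252 to 340 with isoproterenol and 119 to 169 with vehicle. Of 10 listed neutrophil markers 6 were measured. All 6 had a positive change, as did 5669 of all 12451 genes tested, and 2 were called higher. S100a9 (1.42 ± 0.35) was lost without vehicle replicate 1 or 3, and without isoproterenol replicate 2 (adjusted p = 0.0579, 0.3 and 0.0606). Il1r2 (1.34 ± 0.29) was lost without vehicle replicate 3 (adjusted p = 0.0699). S100a8 (0.82 ± 0.30, dim in vehicle) and Lcn2 (0.45 ± 0.24) did not pass. Csf3r (0.12 ± 0.30) and Mmp8 (0.34 ± 0.28) did not pass either, and both were dim in both groups. The part of neutrophil content in the rises of Cxcl1, Cxcl2 and Il6 was not tested. Summed adipocyte markers, 138 to 323 against 89.7 to 96.2, and mesothelial markers, 292 to 524 against 243 to 284, did not overlap either. In the first Pck1 was the only gene of 4 to pass, with Adipoq and Plin1 dim in both groups. In the second Wt1 was the only gene of 4 (0.81 ± 0.20), lost without vehicle replicate 2 or 3, and without isoproterenol replicate 1 or 2 (adjusted p = 0.109, 0.141, 0.0617 and 0.0522). The other mesothelial markers, Msln (-0.42 ± 0.34), Krt19 (-0.40 ± 0.33) and Upk1b (-0.12 ± 0.33), had negative changes that did not pass. All of these were dim with isoproterenol. Of 9 endothelial markers, the junction genes Cldn5 (1.64 ± 0.24) and Esam (0.89 ± 0.17) were higher and 0 lower, while Kdr (-0.31 ± 0.18), Tek (-0.40 ± 0.17) and Pecam1 (0.22 ± 0.18) did not pass; summed levels were 5604 to 6608 with isoproterenol and 5318 to 5861 with vehicle and overlapped. The part of endothelial content in the falls of Aplnr, Ets1 and Plxnd1 was not tested. Of 9 fibroblast markers 1 was lower, the growth factor receptor Pdgfra (-1.09 ± 0.20), with summed levels that overlapped. Among blood cell markers, monocyte Cd14 was higher (1.29 ± 0.36), lost in 7 of the 8 fits without 1 array (adjusted p 0.0711 to 0.183), and lymphocyte Prf1, perforin, lower (-0.98 ± 0.27), lost in 5 (adjusted p 0.0535 to 0.315). In the lists for smooth muscle, mast cells, erythroid cells, skeletal muscle, atrium and nerve limma called 0, with 1 member higher and 3 lower at an unadjusted p under 0.05.

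Most rises of the first hour were still present at 3 h, but fewer at 24 h. Of the 295 genes called higher at 1 h, 245 (83.1%) were also called higher at 3 h, where 6.94% of all genes tested were; they make up 28.4% of the 864 called there. At 24 h 72 (24.4%) and at 72 h 70 (23.7%) were called higher, against 10.0% and 13.3% of all genes tested. Of the 130 falls, 66 (50.8%) were called lower at 3 h, where 6.33% of all genes tested were, 20 (15.4%) at 24 h and 10 (7.69%) at 72 h, where 7.19% and 8.71% of all genes tested were. None of the 425 was called in the opposite direction at 3 h. At 24 h 7 of the 295 rises were called lower and 4 of the 130 falls higher, where 7.19% and 10.0% of all genes tested were. At 72 h 14 of the 295 rises were called lower and 16 of the 130 falls higher, where 8.71% and 13.3% of all genes tested were. Each time has vehicle arrays of its own, so these comparisons share no array in their group means. The arrays of all times were normalized and fitted together, however, with a single estimate of spread per probe set. The calls at different times are therefore not independent of each other, and their overlap was not tested.

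The change at 3 h differed from that at 1 h, by a limma test of the difference itself, in 91 genes (0.731%). By probe set the count was 141, and 65 or 66 without vehicle replicate 1 or 3. Among the genes called higher at 1 h there were 12 such, 8 with a greater and 4 with a smaller change at 3 h, and among those called lower 7. Hlx fell by 2.23 at 1 h and was at -0.46 at 3 h (difference 1.76, adjusted p = 0.00634), and Ets1 went from -1.40 to -0.22 (difference 1.18, adjusted p = 0.00114). Lrrc10 fell further, from -1.18 to -2.62 (difference -1.44, adjusted p = 0.00458). Sphk1 rose further, to 3.98 (difference 1.58, adjusted p = 0.0256), and Nr4a2 was already smaller, at 2.46 (difference -1.75, adjusted p = 0.0234). Among the largest rises, Il6 went from 4.69 to 3.35, Coq10b from 3.26 to 3.53 and Crem from 2.98 to 3.59, differences that did not pass. Timp1 and Rnd1 stayed high to the end, at 4.24 and 2.62 at 24 h and 2.90 and 1.65 at 72 h, while Maff (-0.13) and Irs2 (0.13) were not past the threshold at 24 h.

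**Figure D5:**
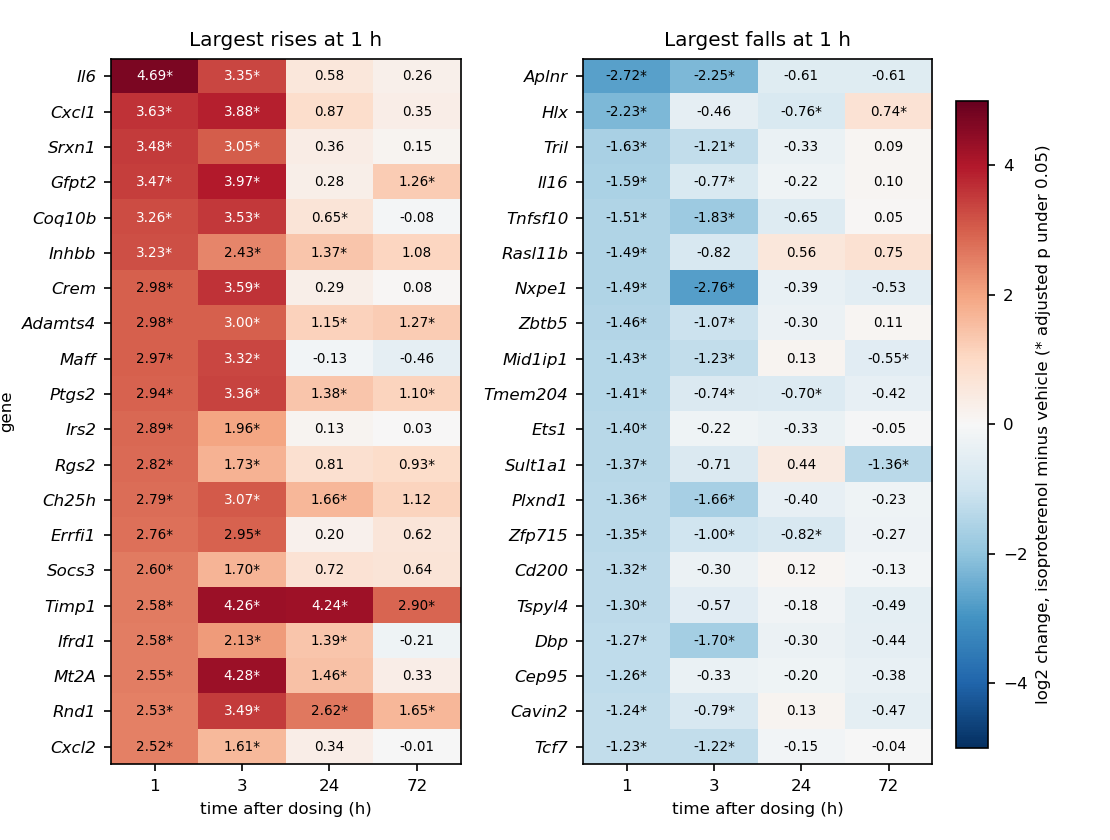
Log2 change, isoproterenol minus vehicle of the same time, at 1, 3, 24 and 72 h for the 20 largest rises outside the best known immediate early genes (left) and the 20 largest falls (right); colour and number give the change, and a star marks a limma adjusted p under 0.05. All 20 rises carry a star at 3 h, and 13 of the 20 falls do.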

How the data were processed

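Total RNA from rat heart was labelled and hybridised to 1-colour oligonucleotide arrays, per the labels' protocols. The authors deposited 1 intensity per probe set and array on a linear scale; the sources used here do not say how probe signals were summarised or scaled. Intensities were used as deposited, as log2(intensity + 16), quantile normalized over all 30 arrays. Of the probe sets, 24292 had a deposited value of at least 23 (the 40th percentile) in 3 or more arrays, with 57 controls left out. The number of arrays limits the precision.

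The 8 groups were fitted together with limma (3.58.1, R 4.3.3; trend over intensity, 22 residual degrees of freedom), and p-values were adjusted by Benjamini-Hochberg over all probe sets, with a threshold of 0.05. The fit was tested on simulated data. Gene symbols came from the platform annotation, updated through RefSeq. The labels give 72 h for the last time and the series' design text 48 h; the labels were followed.

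Genes were named by rule: the 20 largest rises and the 20 largest falls whose groups do not overlap, outside the best known immediate early genes; up to 4 called members of each list with the largest change; and beta-adrenergic receptors, of which 1 is not reported here. Other members named, and those that did not pass, were chosen after their values were seen. The members and lists were chosen with earlier results of these data known. Replicate numbers were not used as pairs. Alternatives changed the added constant, filter, normalization, fit, controls or arrays.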

Additional observations from a re-analysis of the deposited data

Results flagged for a closer look

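Among the 93 genes named by rule, 6 had 1 isoproterenol array of 1 h far from the other four by Dixon's test at 95%, where chance gives about 1 in 20. Rgs2, Mid1ip1 and Icam1 stood out at the high end in replicate 4: Rgs2 at 10.8 (next highest 10.4), Mid1ip1 at 9.04 (next 8.41) and Icam1 at 7.79 (next 7.61). Crem had its lowest value, 10.7, in the same replicate, with the next at 11.2. Bcl3 was lowest in replicate 5, at 6.61 (next 7.08), and Gdf15 lowest in replicate 2, at 5.51 (next 5.80).

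Of the genes named by rule, 5 differed between 3 h and 1 h by the limma test of the difference, given as the change at 3 h minus that at 1 h. It was 1.76 for Hlx (adjusted p = 0.00634), 1.18 for Ets1 (0.00114) and 1.58 for Sphk1 (0.0256), and -1.75 for Nr4a2 (0.0234) and -1.44 for Lrrc10 (0.00458). For Hlx and Ets1 the fall at 1 h was called and the change at 3 h was not, for Lrrc10 both falls were called, and for Sphk1 and Nr4a2 both rises were.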

How the results depend on the processing

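Of the 91 named genes that were called, 64 kept direction and call in all 21 alternatives. The other 27 lost the call in at least 1, with 0 reversals. Many of the named genes were picked for the size of their change. Of all 295 genes called higher, 91 kept the call in every alternative. Of all 130 called lower, 23 did, a gene removed by a filter being counted as lost. Over the gene lists, 950 of 1100 counts stayed within 1.5 times. The number of probe sets called at 1 h (643; 445 higher, 198 lower) was 190 (134 and 56) with no normalization, which moved the median change of all probe sets to -0.23, 1317 (772 and 545) when only the arrays compared were fitted, 1699 (923 and 776) with array weights and 1581 (916 and 665) with all 12 vehicle arrays as control. Without the 2 dimmest isoproterenol arrays, an alternative chosen after seeing the data, 100 were lower. Leaving out 1 array gave 393 to 608 called, 310 to 424 higher and 82 to 189 lower; without vehicle replicate 1, 2 or 3 the lower ones were 82, 106 and 83, and without vehicle replicate 1 or 3 the called ones 412 and 393. The share of higher among called probe sets was 69.2%, against 64.1% with median-centred arrays, 57.9% with all vehicle arrays, 54.3% with array weights, 58.6% with only the arrays compared and 80.1% without vehicle replicate 1.

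The 141 probe sets that differed between 3 h and 1 h became 5 with no normalization, 246 with only the arrays compared, 493 with array weights, 66 without the 2 dimmest arrays, and 65 to 130 when 1 array was left out (65, 89 and 66 without vehicle replicates 1, 2 and 3). The 3 that set the vehicle arrays of 1 h apart became 34 with median centring, 0 with no intensity trend (1698 at an unadjusted limma p under 0.05), 1 with robust empirical Bayes, 1 with only the arrays compared, 371 with array weights, 0 without the 2 dimmest arrays (1635), and 0 to 3 when 1 array was left out (0 without vehicle replicate 1, with 1031, or 2, with 1336). With the replicate number as a block, 542 were called at 1 h (399 higher, 143 lower), 97 differed between 3 h and 1 h and 3 between vehicle groups. No label says that arrays with the same number belong together. Deviations from the group means correlated at -0.012, -0.074 and 0.013 between same-numbered arrays of the 2 groups. Differently numbered arrays gave -0.048 to 0.065, and so few arrays cannot decide whether a number marks something shared. The cause of the differences between these counts was not tested. Probe sets near background limit the size of change that can be read, as for Il6, Cxcl1, Cxcl2, Socs3 and Ptgs2 in vehicle hearts.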

Other observations

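Several gene groups outside the lists were picked out after their values were seen and are given as values only. Of 29 measured genes of the amino acid transporter families SLC1, SLC3, SLC7, SLC36, SLC38 and SLC43, limma called 6 higher and 0 lower (7 and 1 at an unadjusted p under 0.05), with a median of 0.13, where 2.37% of all genes tested were higher. Slc7a1, for cationic amino acids, read 7.54, 7.27 and 7.83 with vehicle and 8.33, 8.67, 8.43, 8.44 and 8.46 with isoproterenol (0.92 ± 0.19), Slc3a2, the heavy chain shared by several carriers, rose by 0.91 ± 0.13, Slc38a2, for small neutral amino acids, by 0.88 ± 0.19 and Slc1a4 and Slc1a1 by 1.38 ± 0.27 and 1.92 ± 0.24. The large neutral carrier Slc7a5 was higher by 0.96 ± 0.25, a call lost without vehicle replicate 1, 2 or 3, and without isoproterenol replicate 1 or 3 (adjusted p = 0.0685, 0.156, 0.0745, 0.0793 and 0.0646). The change at 3 h exceeded that at 1 h for Slc7a1 (1.18, limma adjusted p = 0.0332) and Slc7a5 (1.5, 0.0418). The phosphate carrier Slc20a1 was higher by 1.47 ± 0.16, and the mitochondrial ATP carrier Slc25a25 by 2.51 ± 0.22, with a smaller change at 3 h (-1.35, 0.0418).

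Several single genes were also higher. Trh, the precursor of thyrotropin-releasing hormone, read 5.55, 5.22 and 5.04 with vehicle and 6.79, 6.41, 6.64, 6.97 and 7.01 with isoproterenol (1.49 ± 0.29, dim in vehicle), Drd1, a dopamine receptor coupled to Gs, 4.17, 4.13 and 4.10 with vehicle and 5.79, 5.07, 5.63, 5.51 and 5.13 with isoproterenol (1.29 ± 0.23, dim in vehicle), and Stc1, the secreted glycoprotein stanniocalcin, 7.75, 7.05 and 7.28 with vehicle and 9.63, 8.75, 9.33, 8.32 and 8.85 with isoproterenol (1.62 ± 0.20). The change was smaller at 3 h for Stc1 (-1.79, adjusted p = 0.00204) and Drd1 (-1.34, 0.0491), and greater for Noct, described next (1.15, 0.0221). Noct, a circadian phosphatase of dinucleotides, read 8.81, 8.62 and 8.64 with vehicle and 10.91, 10.92, 10.92, 10.67 and 11.15 with isoproterenol (2.22 ± 0.17), and the elongation factor Ell2 6.85, 7.05 and 6.80 with vehicle and 8.96, 8.99, 9.34, 8.98 and 9.27 with isoproterenol (2.21 ± 0.14). Tiparp, a target of the aryl hydrocarbon receptor, rose by 2.39 ± 0.16, the deubiquitinase Otud1 by 2.44 ± 0.29 and the kinase Dyrk3 by 2.30 ± 0.29.

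Of 5 measured GTPases of the immunity-associated GIMAP family, limma called 0 higher and 3 lower (also 0 and 3 at an unadjusted p under 0.05), where 1.04% of all genes tested were lower: Gimap4 (-0.88 ± 0.17), Gimap6 (-0.75 ± 0.17), lost without vehicle replicate 3 (adjusted p = 0.0866), and Gimap7 (-0.91 ± 0.20), lost without vehicle replicate 2 (adjusted p = 0.0558). Both subunits of the nitric oxide receptor, soluble guanylate cyclase, were lower: Gucy1a1 read 8.19, 8.55 and 8.06 with vehicle and 7.44, 7.15, 7.71, 7.14 and 7.03 with isoproterenol (-0.97 ± 0.20), lost without vehicle replicate 2 (adjusted p = 0.0548), and Gucy1b1 7.62, 7.76 and 7.38 with vehicle and 6.47, 6.70, 6.97, 6.82 and 6.74 with isoproterenol (-0.85 ± 0.21), lost without vehicle replicate 1 or 2, and without isoproterenol replicate 1 (adjusted p = 0.0979, 0.139 and 0.0589). Summed lymphocyte and smooth muscle markers overlapped between the groups, and their part in these values was not tested.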
